A study of Mus musculus with 6 samples.

Results

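Genes that sense and repair DNA damage were followed in primary mouse myoblasts, the precursor cells that fuse into muscle fibres. They were chosen by name, with earlier results of these data known: 46 genes in 8 groups by repair pathway. A probe set with that 1 gene symbol was found for 45 of the 46, and 44 of those were bright enough to be tested, among 12408 genes tested in all. The gene without one, Trp53, is not analysed here, and Bard1, the partner of Brca1, was left out as too dim, at a mean log2 signal of 4.95 in controls and 4.96 in shRNA arrays.

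RNA was hybridised to 6 Affymetrix Mouse Genome 430 2.0 arrays. The 3 control arrays hold myoblasts, and the labels do not say what virus, if any, these cells received. The other 3 arrays hold myoblasts infected with lentivirus made from a Tet-pLKO-puro vector with a hairpin against LncMyoD, a long RNA that encodes no protein. All 6 samples are labelled as primary myoblasts of 21 days of age, with no genotype or strain given. The labels describe a growth medium with 20% fetal bovine serum and a differentiation medium with 5% horse serum, without saying which the arrays represent. Replicates are called biological, but separate cultures or animals are not named. The p-values therefore measure only how far these arrays differ from each other, and that spread may be technical. No probe set carries the name LncMyoD, so the knockdown was not checked here.

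Values are log2 signals, and a difference is the shRNA mean minus the control mean on that scale, so that a difference of 1 is a 2-fold change. A gene was said to rise or fall where limma's test gave a Benjamini-Hochberg adjusted p under 0.05 over all 27022 probe sets tested. Each gene was read by its brightest probe set. Levels of different genes cannot be compared on such arrays, because each probe set binds its target with its own strength. In bulk RNA, fewer cells of a type and less RNA per cell cannot be told apart.

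Cells answer a DNA break through the kinases ATM and ATR, which pass the signal to the checkpoint kinases CHK1 and CHK2 and to p53. Repair then follows separate routes. Homologous recombination copies the intact sister chromatid and works in dividing cells, end joining ligates broken ends at any stage, base and nucleotide excision remove damaged bases, and mismatch repair corrects copying errors. Differentiating muscle cells leave the cell cycle for good, and the routes that rely on replication are known to decline in such cells.

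Of the 44 members tested, 19 rose, 5 fell and 20 did not pass the threshold. Without Brca2, which was tested only through its brighter shRNA arrays, 18 of 43 rose. Across all genes tested 58.5% passed, 35.7% higher and 22.8% lower, so the 54.5% of members that passed in either direction lay near that background. By direction, 43.2% of the members were higher and 11.4% lower. The members' median difference was 0.15, against 0.045 over all genes tested. The split depended on the scaling. With the arrays centred on the median of tested probe sets alone, 16 members rose and 8 fell, and of all genes 29.2% were then higher and 29.6% lower. Quantile normalization gave 17 and 7, with 34.3% of all genes higher and 25.9% lower. The arrays of both groups did not overlap for 33 of the 44 members, where 64.7% of all genes tested showed no overlap.

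Differences among the members ran from -0.44 for Mdm4 to 1.28 for Rad51c. Rad51c and Xrcc1 passed with a change of at least 2-fold, as did Brca2, whose control signal lay under the low-signal limit, and the median size among the 24 that passed was 0.38. The median SD between replicate arrays was 0.070 in controls and 0.062 in shRNA arrays. Taken over the 44 members, the median deviation from the control mean was 0.18, 0.15 and 0.13 on the shRNA arrays, and between -0.028 and 0.026 on the control arrays. Each of the 3 shRNA medians thus lay above all 3 control medians, which lie near the control mean by construction. These values restate, array by array, the members' median difference, which depended on the scaling.

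**Figure D1:**
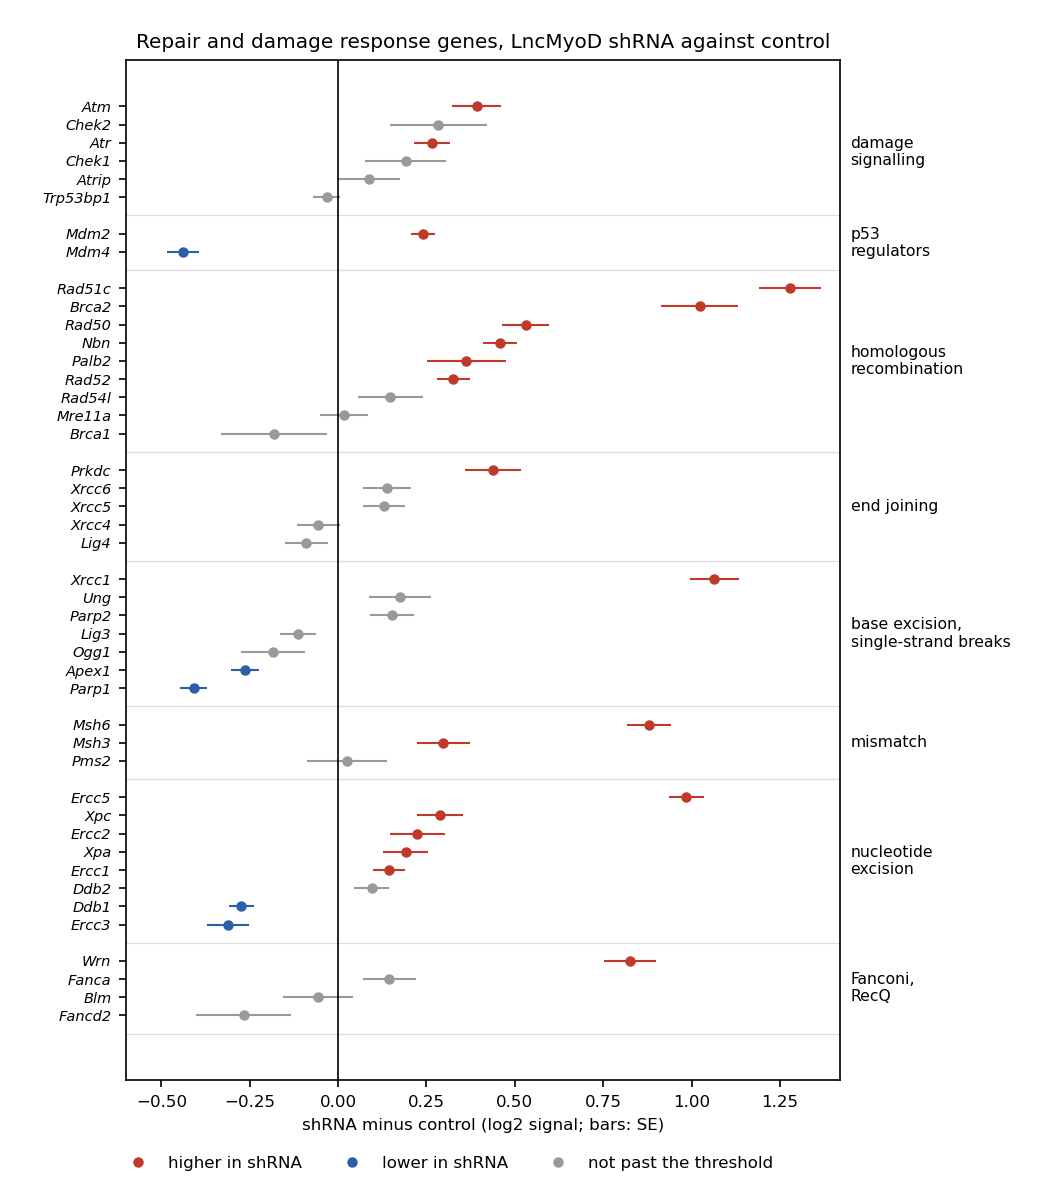
Difference between shRNA and control arrays (log2 signal, with its SE from limma) for the 44 members tested, grouped by pathway. Red points rose, blue points fell and grey points did not pass the threshold. The largest increases are Rad51c, Xrcc1, Brca2 and Ercc5, each in or beside a group with members near 0. Of these, Brca2 was tested only through its brighter shRNA arrays.

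Other measures of the same arrays are given beside these differences, and their part in them was not tested. The log2 ratio of 3' to 5' control signal, a sign of RNA integrity, was 0.51 ± 0.018 in controls and 0.55 ± 0.017 in shRNA arrays for actin (SD, n = 3). For GAPDH it was 0.14 ± 0.045 and 0.23 ± 0.038. Each had a two-sided exact permutation p of 0.1, the smallest that 20 assignments allow. Of 15 markers of S phase and mitosis with a probe set, 10 could be tested. Of these 6 rose (60%), by 0.32 up to 0.99 for Mcm2, and 2 fell (20%), Top2a (-0.72) and Rrm2 (-0.16). Beside these and the marker counts below, 35.7% of all genes tested were higher and 22.8% lower. Mcm5, named after its value was seen, was at 6.51 in controls and 5.52 in shRNA arrays (-0.99). It was left out only because its shRNA arrays were low. The rest of the 5 too dim to test differed by -0.25 to 0.091. The log2 of the 15 markers' summed linear signal was 14.00 to 14.09 in controls and 14.07 to 14.17 in shRNA arrays. Such a sum is carried by the brightest gene, here Rrm2 (13.43 and 13.27), and says little of the others. Of the 7 myoblast and muscle markers, 3 rose, Pax7 (0.66), Myf5 (0.62) and Cdh15 (0.40), and 2 fell, Mymk (-0.24) and Myog (-0.13). Myod1 (13.80 and 13.82) and Des (13.22 and 13.26) did not pass, and the log2 of the markers' summed signal was 15.89 to 15.96 in each group. This sum too is carried by bright genes such as Myog (14.13 and 14.00) and says little of Pax7 or Myf5. On the same scale fibroblast markers summed to 9.67 to 9.75 in controls and 9.62 to 9.75 in shRNA arrays, with 3 of 7 too dim to test. Among the rest Pdgfra rose (0.89), and Col1a1 and Col1a2 fell (-0.42 each). All 5 endothelial markers with a probe set, and 4 of the 5 leukocyte markers, were also too dim to test, and the remaining one, Cd68, was at 6.40 and 6.73, tested only because its shRNA arrays lay above 6.50, the low-signal limit. The endothelial sums were 8.06 to 8.26 and 8.01 to 8.34, and the leukocyte sums 7.95 to 8.17 and 8.04 to 8.36.

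Homologous recombination and the resection of broken ends held the largest single increase among the members. Increases passed in 6 of 9 genes tested (66.7%) and decreases in 0, against 35.7% and 22.8% of all genes tested. The median difference was 0.36, and without Brca2, 5 of 8 rose. Counts in pathways this small were not tested against the shares of all genes. Rad51c, which acts in strand exchange and is mutated in some families with breast and ovarian cancer, rose most. On the control arrays its signal (probe set 1438453_at) was 7.79, 7.89 and 7.67, and on the shRNA arrays 9.00, 9.06 and 9.12. The groups were far apart: the mean rose from 7.78 ± 0.11 to 9.06 ± 0.062 (SD, n = 3), a difference of 1.28 (SE 0.087, limma adjusted p = 9.06e-08), or 2.42-fold. Its second probe set rose by 1.40.

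Brca2 is a tumour suppressor of this route. Its signal (probe set 1419076_a_at) was 6.49, 6.50 and 6.49 on the control arrays and 7.63, 7.43 and 7.49 on the shRNA arrays. The difference was 1.02 (SE 0.11, limma adjusted p = 5.00e-06), or 2.03-fold. The control mean of 6.49 lay just under 6.50, the level below which probe sets were left out as low. Brca2 was thus tested only because of the group where it is high, so its call gives no support and its size is not settled. Palb2, which joins BRCA1 to BRCA2, rose by 0.36 (SE 0.11), from 6.93 to 7.29. That call was lost without control array 3 (0.31, limma adjusted p = 0.0611) and without shRNA array 3 (0.31, limma adjusted p = 0.0696).

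The MRE11-RAD50-NBS1 complex holds and trims broken ends. Rad50 rose by 0.53 (SE 0.065), from 9.11 ± 0.054 to 9.64 ± 0.044. Nbn, which encodes NBS1, rose by 0.46 (SE 0.049), from 10.54 ± 0.054 to 11.00 ± 0.033. Mre11a, the nuclease, stood at 9.40 ± 0.074 in controls and 9.41 ± 0.063 in shRNA arrays, with overlapping groups (limma adjusted p = 0.865). Whether the change of Mre11a differs from those of its partners was not tested. Rad52, an annealing protein, rose by 0.33 (SE 0.046), from 10.61 to 10.94.

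Brca1 stood at 6.89 ± 0.24 and 6.70 ± 0.22, a difference of -0.18 within the spread of its arrays (limma adjusted p = 0.331). Rad54l, a motor protein of strand exchange, differed by 0.15 (SE 0.093, limma adjusted p = 0.199).

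**Figure D2:**
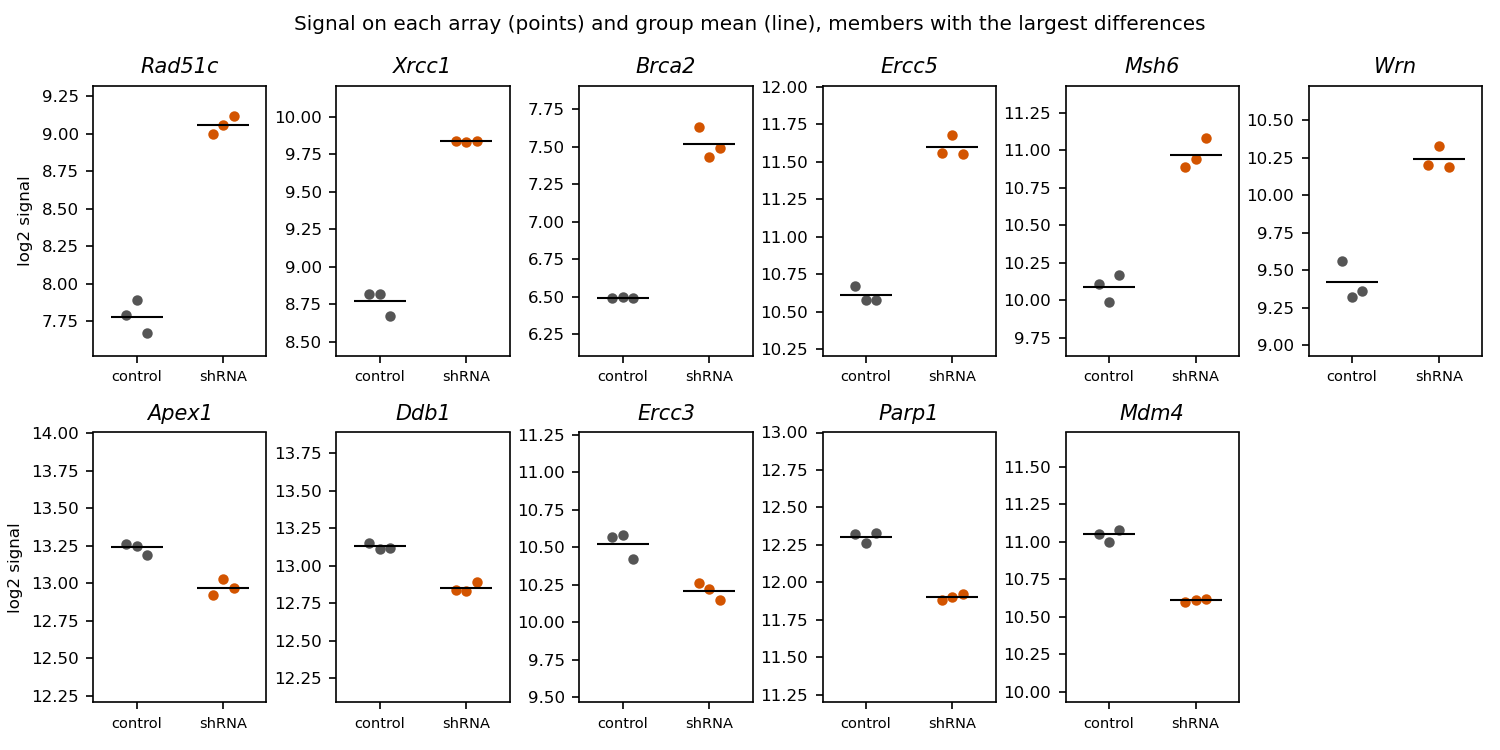
Log2 signal on each array (points) and group mean (line) for the 6 members that rose most and the 5 that fell; every panel spans 1.8 log2 units. In all 11 genes the 3 shRNA points lie on 1 side of the 3 control points, by about 1 unit in the upper row's Brca2 and Ercc5 and by less than 0.5 in the lower row. The genes were chosen by these differences, so the separation is description only, and 64.7% of all genes tested showed no overlap. Brca2 was tested only through its brighter shRNA arrays.

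Promoter sequences of the 4 members with the largest increases are shown to set genes of 3 different repair routes side by side; their shared direction was fixed by this choice. They are RefSeq windows of the GRCm38.p6 build, 250 bases before to 50 bases after a transcript start, read along the gene's strand. A window was found for 37 of the 45 members with a probe set. Capitals mark matches, on either strand, to E2F sites (TTTCCCGC, TTTCGCGC, TTTGCCGC or TTTGGCGC), to CCAAT, to the GC box GGGCGG and to the E-box CAGCTG. E2F factors drive many genes of S phase, CCAAT binds NF-Y, the GC box binds SP1-type factors and E-boxes of this form can bind MyoD.
Rad51c, lower-coordinate start, chr11:87404457-87404756, minus strand: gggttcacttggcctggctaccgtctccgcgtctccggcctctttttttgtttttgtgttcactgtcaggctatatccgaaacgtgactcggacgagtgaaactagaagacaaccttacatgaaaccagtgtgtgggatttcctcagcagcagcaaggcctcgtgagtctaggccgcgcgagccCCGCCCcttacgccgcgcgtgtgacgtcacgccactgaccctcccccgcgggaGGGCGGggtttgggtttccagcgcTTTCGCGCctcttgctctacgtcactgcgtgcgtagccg
Rad51c, higher-coordinate start, chr11:87404905-87405204, minus strand: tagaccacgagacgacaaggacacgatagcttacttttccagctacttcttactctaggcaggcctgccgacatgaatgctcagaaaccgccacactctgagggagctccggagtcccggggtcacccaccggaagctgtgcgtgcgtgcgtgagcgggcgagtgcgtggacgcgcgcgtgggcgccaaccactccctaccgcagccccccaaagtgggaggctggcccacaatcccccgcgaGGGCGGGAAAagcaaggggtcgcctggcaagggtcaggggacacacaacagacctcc
Xrcc1, chr7:24546449-24546748, plus strand: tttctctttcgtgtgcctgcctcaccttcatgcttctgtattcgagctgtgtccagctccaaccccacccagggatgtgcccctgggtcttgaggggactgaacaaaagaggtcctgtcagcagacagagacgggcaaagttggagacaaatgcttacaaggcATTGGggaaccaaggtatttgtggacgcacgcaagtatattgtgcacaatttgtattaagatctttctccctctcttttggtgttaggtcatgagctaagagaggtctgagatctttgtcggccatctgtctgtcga
Brca2, chr5:150522371-150522670, plus strand: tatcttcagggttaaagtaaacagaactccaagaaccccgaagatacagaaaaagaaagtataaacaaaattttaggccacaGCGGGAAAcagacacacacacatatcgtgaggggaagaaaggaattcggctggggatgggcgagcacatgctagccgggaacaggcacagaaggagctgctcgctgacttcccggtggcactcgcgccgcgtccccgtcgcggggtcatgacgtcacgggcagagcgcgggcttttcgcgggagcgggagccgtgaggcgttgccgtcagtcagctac
Ercc5, chr1:44147494-44147793, plus strand: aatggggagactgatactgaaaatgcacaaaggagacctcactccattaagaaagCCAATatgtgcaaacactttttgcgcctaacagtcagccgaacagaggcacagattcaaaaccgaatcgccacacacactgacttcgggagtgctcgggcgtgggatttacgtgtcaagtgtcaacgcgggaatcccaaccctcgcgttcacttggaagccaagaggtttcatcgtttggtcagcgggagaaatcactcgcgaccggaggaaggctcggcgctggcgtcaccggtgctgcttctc

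Both Rad51c windows and the Brca2 window hold E2F letters, and the Xrcc1 and Ercc5 windows hold none. In the Rad51c window of higher coordinates the GC box and the E2F match share bases. The Xrcc1 and Ercc5 windows each hold 1 CCAAT match, and none of the 5 holds CAGCTG. Among members with a window, 7 of 37 (18.9%) held E2F letters: Bard1, Brca2, Chek2, Msh3, Msh6, Rad51c and Xrcc6. The share was 4.59% of the 9993 tested genes with a window and 2.26% of all 32851 windows of this length. By call, E2F letters stood in 4 of 14 members that rose, 0 of 4 that fell and 2 of 18 that did not pass. The members that rose include Brca2, whose call gives no support.

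The other letters were common. CCAAT stood in 54.1% of members and 43.0% of tested genes (37.4% of all windows), and the GC box in 75.7% and 67.3% (35.7%). CAGCTG stood in 16.2% of members and 18.3% of tested genes (16.3% of all windows). A p53 half-site stood in 5.41% of members, Mdm2 and Fanca, and in 8.50% of tested genes (8.36% of all windows). These matches describe letters in the windows and do not show binding.

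Among damage signalling genes, increases passed in 2 of 6 tested (33.3%) and decreases in 0, against 35.7% and 22.8% of all genes tested. The median difference was 0.23. Atm, the kinase of double-strand breaks, rose by 0.39 (SE 0.069), from 10.13 ± 0.025 to 10.52 ± 0.15, and its second probe set rose by 0.61. Atr, the kinase of stalled forks, rose by 0.27 (SE 0.050), from 10.17 ± 0.022 to 10.44 ± 0.022, while another probe set of it differed by 0.11 (limma adjusted p = 0.377). Atrip, which brings ATR to single-stranded DNA, differed by 0.087 (SE 0.088, limma adjusted p = 0.430).

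The effector kinases did not pass. Chek1 differed by 0.19 (SE 0.12, limma adjusted p = 0.186). Chek2 differed by 0.28 (SE 0.14, limma adjusted p = 0.100), with 7.67 on control array 1 against 7.26 and 7.09 on the others. Without that array its difference was 0.45 (limma adjusted p = 0.00438). Trp53bp1, which marks break sites, stood at 13.14 ± 0.028 and 13.11 ± 0.060, and none of its 5 tested probe sets passed the threshold.

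The 2 tested regulators of p53 moved in opposite directions. Mdm2, the ubiquitin ligase that destroys p53 and is itself a p53 target, was at 13.27, 13.24 and 13.25 in controls and 13.46, 13.53 and 13.49 in shRNA arrays. It rose by 0.24 (SE 0.034, limma adjusted p = 5.45e-05), and its dimmer probe set rose by 0.54. Mdm4 (probe set 1460542_s_at), which blocks p53's activity, was at 11.05, 11.00 and 11.08 in controls and 10.60, 10.61 and 10.62 in shRNA arrays. It fell by 0.44 (SE 0.046, limma adjusted p = 4.51e-06), 1.36-fold, the largest decrease among the members. Its other tested probe set fell by 0.36.

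In end joining, 1 of 5 genes rose (20%) and none fell, against 35.7% and 22.8% of all genes tested. Prkdc, the catalytic subunit of the DNA-dependent protein kinase, rose by 0.44 (SE 0.079), from 8.50 ± 0.072 to 8.94 ± 0.069. Its partners Xrcc5 and Xrcc6, the Ku subunits that bind broken ends, differed by 0.13 (SE 0.059, limma adjusted p = 0.0807) and 0.14 (SE 0.068, limma adjusted p = 0.108). Without shRNA array 3 Xrcc5 passed (0.18, limma adjusted p = 0.0346). The ligation pair showed small differences of the other sign: -0.056 for Xrcc4 (limma adjusted p = 0.465) and -0.090 for Lig4 (limma adjusted p = 0.228). Lig4 passed with the arrays centred (-0.15, limma adjusted p = 0.0346).

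Base excision and single-strand break repair held both the second largest increase and clear decreases. An increase passed in 1 of 7 genes (14.3%) and decreases in 2 (28.6%), against 35.7% and 22.8% of all genes tested. The median difference was -0.11. Xrcc1 (probe set 1416587_a_at), the scaffold of single-strand break repair, was at 8.82, 8.82 and 8.67 on the control arrays and 9.84, 9.83 and 9.84 on the shRNA arrays. It rose by 1.06 (SE 0.069, limma adjusted p = 5.52e-08), or 2.09-fold.

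Parp1, the sensor that recruits XRCC1 to a break, went the other way. Its signal (probe set 1435368_a_at) was 12.32, 12.26 and 12.33 in controls and 11.88, 11.90 and 11.92 in shRNA arrays. It fell by 0.41 (SE 0.038, limma adjusted p = 1.57e-06), 1.33-fold, and its other 2 tested probe sets fell by 0.50 and 0.42. Apex1 (probe set 1437715_x_at), the endonuclease that cuts at sites without a base, was at 13.26, 13.25 and 13.19 against 12.92, 13.03 and 12.97. It fell by 0.26 (SE 0.039, limma adjusted p = 8.88e-05). The brightest probe set of Apex1 ends in _x_at, a mark of possible cross-hybridisation, but its other 2 fell as well, by 0.30 and 0.32.

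Lig3, the ligase that works with XRCC1, differed by -0.11 (SE 0.051, limma adjusted p = 0.0739) on its brightest probe set. A dimmer probe set of Lig3 fell by 0.42 (limma adjusted p = 0.000225), and the other tested one differed by -0.22 (limma adjusted p = 0.0596). With its probe sets averaged Lig3 fell by 0.25 (limma adjusted p = 0.00329), and with centred arrays by 0.18 (limma adjusted p = 0.00661). Parp2, a relative of Parp1, differed by 0.15 (limma adjusted p = 0.0515). It passed without control array 2 (0.20, limma adjusted p = 0.0261) or shRNA array 3 (0.18, limma adjusted p = 0.0478). The glycosylases Ung, which removes uracil, and Ogg1, which removes oxidised guanine, differed by 0.18 and -0.18 (limma adjusted p = 0.109 and 0.108). Ogg1 fell with the arrays centred (-0.25, limma adjusted p = 0.0281) and after quantile normalization (-0.25, limma adjusted p = 0.0269).

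Nucleotide excision repair, which cuts out bulky lesions, had 5 of 8 genes that rose (62.5%) and 2 that fell (25%), with a median of 0.17. The shares of all genes tested were 35.7% and 22.8%. Most of the increases were small. Ercc5, the endonuclease XPG that cuts on the 3' side of a lesion, was the exception. Its probe set, 1450935_at, stood at 10.67, 10.58 and 10.58 in controls and 11.56, 11.68 and 11.55 in shRNA arrays, a difference of 0.99 (SE 0.051, limma adjusted p = 8.71e-09), or 1.98-fold. Xpc, which finds lesions across the genome, rose by 0.29 (SE 0.065), from 9.36 to 9.65.

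Ercc1 (0.14), of the nuclease that cuts on the 5' side, Ercc2 (0.22), a helicase of the repair factor TFIIH, and Xpa (0.19), which verifies the lesion, also rose. None of these 3 calls held with the arrays centred, where the differences were 0.081, 0.16 and 0.13 (limma adjusted p = 0.0916, 0.0627 and 0.0874). Without control array 3 all 3 were lost as well (0.11, 0.17 and 0.15; limma adjusted p = 0.0607, 0.0940 and 0.0788), which left 2 of the 8 genes higher. Without shRNA array 1 or 2, 3 were higher: Xpa was lost (0.18 and 0.17; limma adjusted p = 0.0840 and 0.0860), and so was Ercc2 (0.23 and 0.21; limma adjusted p = 0.0551 and 0.0818). The call of Ercc2 was also lost without control array 2 (0.22, limma adjusted p = 0.0667) or shRNA array 3 (0.23, limma adjusted p = 0.0647). After quantile normalization Ercc2 (0.16, limma adjusted p = 0.0655) and Xpa (0.12, limma adjusted p = 0.119) did not pass. With probe sets averaged, Ercc1 (0.098, limma adjusted p = 0.143) and Xpa (0.080, limma adjusted p = 0.572) did not.

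Ercc3, the other TFIIH helicase, fell. Its probe set, 1448497_at, read 10.57, 10.58 and 10.42 in controls and 10.26, 10.22 and 10.15 on the shRNA arrays. That made a difference of -0.31 (SE 0.059, limma adjusted p = 0.000614). Ddb1 (probe set 1415735_at), an adaptor of the ubiquitin ligase that marks ultraviolet damage, was at 13.15, 13.11 and 13.12 in controls and 12.84, 12.83 and 12.89 in shRNA arrays. It fell by 0.27 (SE 0.035, limma adjusted p = 2.31e-05). Its partner Ddb2, a p53 target in human cells, did not pass on either probe set, with differences of 0.095 (limma adjusted p = 0.129) and -0.19 (limma adjusted p = 0.0720).

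In mismatch repair, 2 of 3 genes rose (66.7%), against 35.7% of all genes tested. Msh6 (probe set 1416915_at), which recognises single mismatches, was at 10.11, 9.99 and 10.17 in controls and 10.89, 10.94 and 11.08 in shRNA arrays. It rose by 0.88 (SE 0.063, limma adjusted p = 1.35e-07), or 1.84-fold. Msh3, which recognises larger loops, rose by 0.30 (SE 0.075) on its brightest probe set. A dimmer one differed by -0.016 (limma adjusted p = 0.933), and the mean of both was not past the threshold (0.14, limma adjusted p = 0.215). Pms2, of the complex that cuts the new strand, differed by 0.024 (limma adjusted p = 0.878).

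Among the Fanconi anaemia genes and RecQ helicases 1 of 4 rose (25%) and none fell, against 35.7% and 22.8% of all genes tested. Wrn (probe set 1425074_at), the helicase mutated in Werner syndrome, was at 9.56, 9.32 and 9.36 in controls and 10.20, 10.33 and 10.19 in shRNA arrays. It rose by 0.83 (SE 0.074, limma adjusted p = 9.90e-07), or 1.77-fold. A dimmer tested probe set of Wrn differed by -0.18 (limma adjusted p = 0.268), so its 2 tested probe sets did not move together. Another probe set of Wrn, too dim to test, was at 5.47 in controls and 6.40 in shRNA arrays, a difference of 0.93. Blm, the helicase mutated in Bloom syndrome, differed by -0.056 (limma adjusted p = 0.665).

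Fanca, of the Fanconi core complex, differed by 0.15 (limma adjusted p = 0.122). Fancd2, which that complex ubiquitinates at crosslinks, differed by -0.27 (SE 0.13, limma adjusted p = 0.112). Without control array 1, where it was dimmest among controls at 7.08, Fancd2 fell by 0.40 (limma adjusted p = 0.0151).

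Of the 24 members that passed, 12 had another tested probe set. In 7 of these every other tested probe set passed in the same direction: Atm, Mdm2, Mdm4, Rad51c, Rad52, Parp1 and Apex1. In Atr, Msh3, Ercc1, Xpa and Wrn at least 1 other did not pass, and in 0 of the 12 did another pass in the opposite direction.

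**Figure D3:**
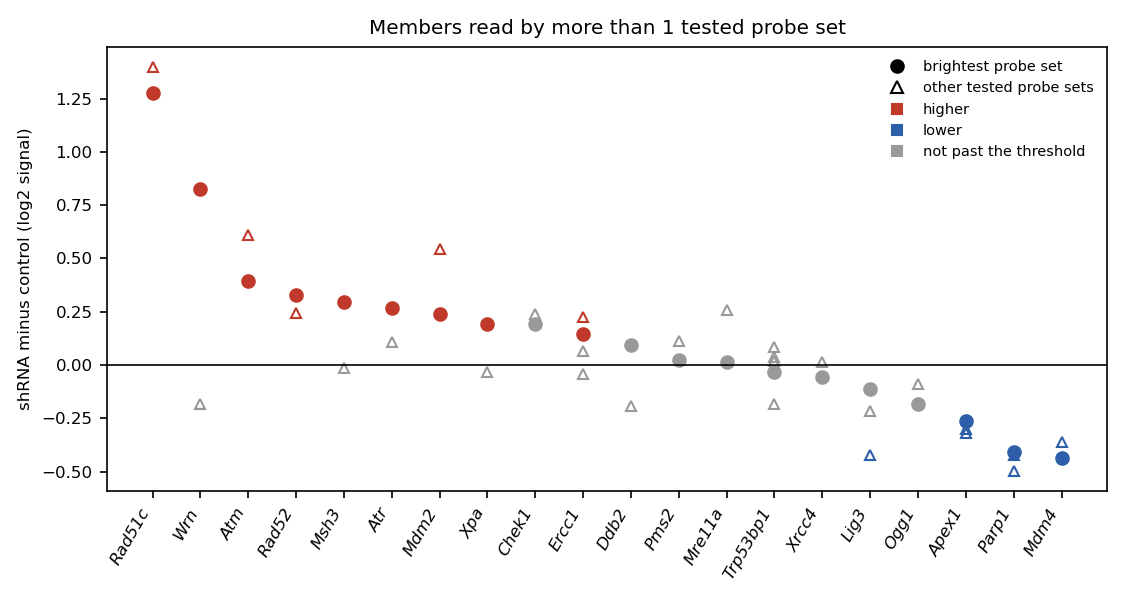
Difference between shRNA and control arrays (log2 signal) for the 20 members with more than 1 tested probe set; filled circles are the brightest probe set and open triangles the others, coloured by whether they rose, fell or did not pass. Rad51c (1.28 and 1.40) and Parp1 (-0.41, -0.42 and -0.50) agree across probe sets, and Wrn (0.83 and -0.18) does not.

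Other genes of the same pathways were described from lists of further repair genes, checkpoint genes and p53 targets. These lists were chosen with earlier results of these data known. Their shares are therefore description only, set beside all genes tested (35.7% higher and 22.8% lower). Of 62 other repair genes 46 could be tested, of which 19 rose (41.3%) and 9 fell (19.6%). Their median difference was 0.14. The largest increases were those of Rad54b, a relative of Rad54l (1.04), Mgmt, which removes alkyl groups from guanine (0.89), Polm, a polymerase of end joining (0.67), Fancb (0.66) and the glycosylase Neil1 (0.63). The largest decreases were those of Fancc (-0.58), the recombination gene Xrcc3 (-0.56), the helicase Recql5 (-0.55), Rad51ap1 (-0.48), and Gtf2h3, another subunit of TFIIH (-0.35). Rad51d, named after its value was seen, rose by 0.37.

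Of 17 other checkpoint genes tested, 12 rose (70.6%) and 0 fell. Their median difference was 0.44. Wee1, the kinase that holds CDK1 inactive, rose by 1.01 (SE 0.066), from 10.10 to 11.11. Its opponents, the phosphatases Cdc25a and Cdc25b, rose too, by 0.84 (SE 0.082) and 0.60 (SE 0.045). Mdc1, the scaffold at marked breaks, rose by 0.77 (SE 0.064) and the fork protector Tipin by 0.60 (SE 0.050). The count of increases was also 12 with the arrays centred, after quantile normalization and without any 1 array.

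Of 22 tested p53 targets, 16 rose (72.7%) and 1 fell. Their median difference was 0.39. Pidd1, named after its value was seen, is among the 16, at 6.28 in controls and 6.82 in shRNA arrays. It was tested only because its shRNA arrays lay above the low-signal limit, so its call gives no support. Polk, a polymerase that copies past lesions, rose by 1.12 (SE 0.073), from 9.87 to 10.98. The antiproliferative Btg2 rose by 1.05 (SE 0.051) and Bbc3, the death protein PUMA, by 0.79 (SE 0.073). Tigar, which lowers glycolytic flux, rose by 0.72 (SE 0.048), and Trp53inp1, a cofactor of p53, by 0.70 (SE 0.038). Pmaip1, the death protein NOXA, fell by 0.32 (SE 0.067). Cdkn1a, named after its value was seen, stood at 14.18 in both groups, at the bright end of the scale. With the arrays centred 14 rose and 3 fell, and after quantile normalization 17 and 3. Without control array 2 or shRNA array 3, 2 fell.

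**Figure D4:**
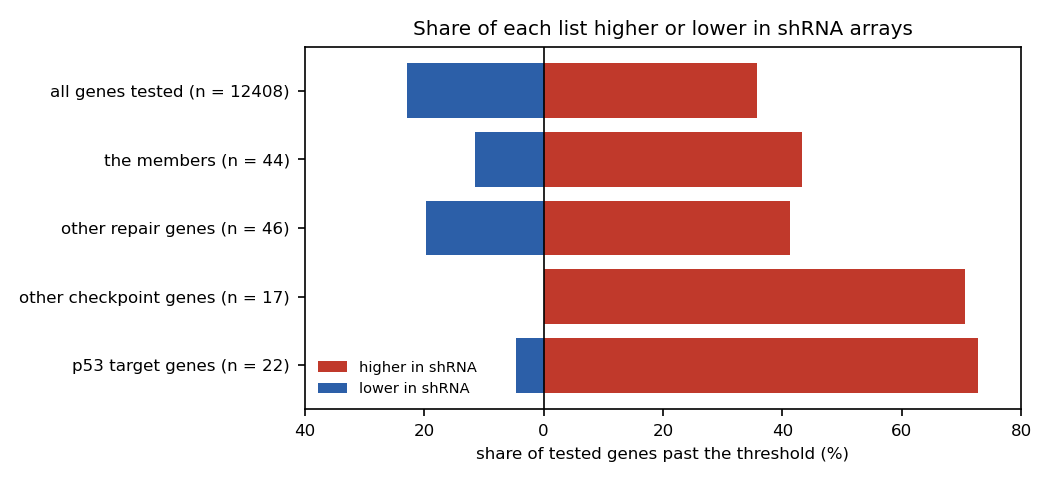
Share of tested genes that rose (red, to the right) or fell (blue, to the left) in shRNA arrays, for all genes tested, the members and the lists of other repair genes, other checkpoint genes and p53 targets. The members (43.2% and 11.4%) and other repair genes (41.3% and 19.6%) stand beside all genes (35.7% and 22.8%). The checkpoint (70.6%) and p53 target (72.7%) bars reach further to the right. Brca2 among the members and Pidd1 among the p53 targets were tested only through their brighter shRNA arrays. Members and lists were chosen with earlier results of these data known.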

How the data were processed

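Log2 signals deposited by the authors, 1 per probe set and array, were used for 3 control and 3 LncMyoD shRNA arrays. The scale was read from the values (4.48 to 14.6), and all 6 arrays have a median of 7.23, so the authors' normalization aligned them. PLIER and MAS5 are named in the submitters' processing notes, without role or version. Neither scanner files nor detection calls entered this work. Arrays have no read depth, and the number of arrays limits the precision. The table had 0 columns without a sample.

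Gene symbols came from GEO's annotation of the platform. Of 45101 probe sets, 34945 had 1 symbol, 932 several and 9224 none or were controls. The 64 control probe sets and the 40% with the lowest mean over all arrays (18015, below 6.50) were left out. The other 27022 were tested with limma 3.58.1 in R 4.3.3 (lmFit, eBayes with a mean-variance trend), without covariates. SE is limma's. The calculations were tested on simulated data.

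Members and lists were chosen with earlier results of these data known. All members are named. From each further list the rule names up to 5 genes that rose and 5 that fell most. It gives arrays singly for the 6 largest changes each way and promoters for the 4 largest increases. Single arrays of Mdm2 and Chek2, and genes marked so, were chosen after their values were seen. Alternatives were other scalings, filters, probe set rules and variance models, a replicate block and leaving out each array. Same-numbered arrays of both groups had deviations correlated at -0.134, -0.062 and 0.031, so the numbers were not taken to pair them.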

Additional observations from a re-analysis of the deposited data

How the results depend on the processing

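With the arrays centred on the median of tested probe sets alone, 8 members fell in place of 5 and the members' median difference was 0.086 in place of 0.15. End joining then had 1 lower gene, base excision 4 lower, nucleotide excision 2 higher, and p53 targets 3 lower. Quantile normalization gave 4 lower genes in base excision, 3 higher in nucleotide excision and 3 lower p53 targets. Averaging a gene's probe sets gave 2 higher in base excision, 1 in mismatch repair and 3 in nucleotide excision. Leaving out the lowest 60% of probe sets gave 2 higher in base excision, and fitting no variance trend 2 higher among Fanconi and RecQ genes. Of all genes tested, 34.4% were higher with probe sets averaged, 40.5% without the lowest 60% and 32.9% without a variance trend. Without 1 array at a time, 15 to 20 members rose and 5 to 6 fell, with a median of 0.13 to 0.17. Of all genes tested, 31.4% to 37.3% were higher and 19.9% to 21.7% lower in those runs. The genes that rose were then 2 to 5 in nucleotide excision, 5 to 6 in homologous recombination, 2 to 3 in damage signalling, and 1 to 2 in both end joining and base excision. Lower genes were 0 to 1 among Fanconi and RecQ genes and 1 to 2 among p53 targets. Where a count moved by more than 1.5 times, the cause was not tested. Of the 24 members that passed, 19 kept their call and direction in all alternatives that tested them. The other 5 were Palb2, Msh3, Ercc1, Ercc2 and Xpa. No member changed sign while past the threshold. With the replicate number as a block 19 members rose and 5 fell, as without it, and 33.7% of all genes were higher and 21.1% lower. With that block, p53 targets that rose were 15, and the other repair genes 17 higher and 8 lower. A signal low on the scale was not separated from background, which limits Brca2 most.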
